A study of Homo sapiens with 28 samples.

Results

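The transcripts described here are 10 genes known as targets of MLL fusion proteins, chosen by name and lying outside the HOX clusters. They are MEF2C, CDK6, JMJD1C, ZNF521, EYA1, SATB1, BCL11A, MYB, RUNX2 and ADCY9. All 10 of the 10 listed genes were on the array, each with 1 probe set, among 17687 genes with a name. Global gene expression was measured on Clariom S arrays in 7 human acute myeloid leukemia (AML) cell lines. There were 4 lines with a rearranged MLL gene (MLL-r), namely MOLM-13, MV4-11, THP-1 and NOMO-1, and 3 non-MLL-r lines, OCI-AML3, U-937 and HL-60. Each line was kept for 8 days either in 1 µM Pinometostat, an inhibitor of the histone methyltransferase DOT1L, or in the vehicle alone, DMSO at 0.01%, with 2 arrays per line and condition, 28 in all. MV4-11 carries an MLL-AF4 fusion and the other MLL-r lines carry MLL-AF9. The leukemias are represented by established lines only, and the labels do not say whether the 2 arrays of a condition came from separate cultures, so that the errors given here may be technical.

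MLL (KMT2A) is a chromatin regulator whose CXXC domain binds unmethylated CpG dinucleotides. In MLL-r leukemia this DNA-binding part is fused to a partner protein, and many partners belong to complexes that bring in DOT1L, which methylates a lysine in the core of histone H3 over transcribed genes. Target genes of the fusions include developmental and hematopoietic regulators that are highly expressed in blood stem and progenitor cells, and inhibition of DOT1L is known to lower several of them in MLL-r leukemia. The comparison of treated with control cells in each line asks whether these targets changed, and the comparison of MLL-r lines with the others asks whether their level or their change went with the fusion.

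The CpG content of the promoters is shown first, because it is the sequence feature that the MLL CXXC domain reads. The RefSeq promoter table (GRCh38.p14) held 7 of the 10 genes, all but ZNF521, EYA1 and ADCY9, and the window of 250 bases before the outermost listed start of each gene was used. The array does not show which start a line used. The following stretches are the last 150 bases before the start, 5′ to 3′ on the strand of the gene, with each CpG in capitals. CDK6 and MYB are shown as the genes whose change was negative in every line, and JMJD1C and MEF2C because their changes kept MLL-r and non-MLL-r lines apart. RUNX2 is shown as an example of a member that fell in a line of each kind. SATB1 and BCL11A also did so but are not printed, and their CpG counts are given below.
CDK6, chr7:92836574-92836723, minus strand: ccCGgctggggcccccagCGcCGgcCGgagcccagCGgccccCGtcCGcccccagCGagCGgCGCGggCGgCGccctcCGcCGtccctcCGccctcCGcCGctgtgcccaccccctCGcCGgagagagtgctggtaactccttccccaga
MYB, chr6:135181158-135181307, plus strand: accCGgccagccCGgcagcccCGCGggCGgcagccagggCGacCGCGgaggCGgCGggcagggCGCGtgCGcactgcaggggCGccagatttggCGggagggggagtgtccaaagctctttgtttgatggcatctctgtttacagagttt
JMJD1C, chr10:63521891-63522040, minus strand: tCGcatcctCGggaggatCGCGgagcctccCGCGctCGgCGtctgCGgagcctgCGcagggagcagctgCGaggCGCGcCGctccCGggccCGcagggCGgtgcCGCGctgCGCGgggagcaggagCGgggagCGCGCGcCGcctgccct
MEF2C, chr5:88904106-88904255, minus strand: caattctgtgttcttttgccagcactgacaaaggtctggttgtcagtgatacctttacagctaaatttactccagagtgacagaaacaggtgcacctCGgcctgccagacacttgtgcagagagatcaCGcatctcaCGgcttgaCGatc
RUNX2, chr6:45328180-45328329, plus strand: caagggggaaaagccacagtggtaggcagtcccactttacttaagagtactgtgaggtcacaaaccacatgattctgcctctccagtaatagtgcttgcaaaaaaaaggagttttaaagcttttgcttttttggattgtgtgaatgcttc

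The 7 windows at the outermost starts did not share a CpG-rich sequence. Other listed starts were not scored, and MEF2C had 7 listed entries, SATB1 4 and RUNX2 2, so a CpG-poor window does not describe every promoter of a gene. Over 250 bases, JMJD1C held 35 CpGs, MYB 34 and CDK6 30, whereas the median of the 27305 genes in the table was 10. BCL11A held 19 and SATB1 10. MEF2C held 6, and 38.7% of all promoters held fewer. RUNX2 held 0. The RUNX motif TGTGGT, searched on both strands, occurred in the windows of JMJD1C and RUNX2, with 1 and 2 matches, and in 11.1% of all promoters. TAACNG, a MYB motif found in 17.6% of all promoters, matched 0 of the 7 windows. A match of letters describes the window and is not evidence of binding.

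Signals are log2 values, so that a difference of 1 is a doubling, and levels are compared between lines for the same probe set. Signals of different genes are set side by side only as a rough guide, for cell type markers and for members near the negative controls. In each condition, the 2 arrays of a line correlated at 0.953 to 0.985 in the control cells and at 0.957 to 0.982 in the treated cells. The 95th percentile of 612 negative control probe sets, taken over all arrays, was 4.17. Of the 10 members, 8 exceeded it on 28 of 28 arrays. ZNF521 exceeded it on 12 of 28, all 4 arrays of THP-1, MOLM-13 and NOMO-1 and 0 arrays of the other lines, and EYA1 on 21 of 28. The myeloid identity of the lines was checked on 6 measured markers, of which PTPRC was at 8.53 or above and SPI1 at 8.65 or above in the control cells of every line. MPO and LYZ were low in some lines, down to 5.00 and 4.74. In control cells the 4 T cell markers ranged between 2.54 and 4.84, and of the 3 measured B cell markers MS4A1 lay between 2.74 and 3.51, PAX5 between 6.01 and 6.86 and CD79A between 5.89 and 7.42. PAX5 and CD79A thus lay above the lowest MPO and LYZ signals, so that these levels alone do not separate the lineages.

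Most calls of a lower member signal with Pinometostat lay in NOMO-1 and THP-1. A gene was called in a line at an unadjusted p under 0.05 in limma and a change of at least 1 on the log2 scale. The table of all genes supplied the background. The members were chosen with earlier results of these data known, so the shares are set side by side and not tested. In NOMO-1, 5 of 10 members were called lower (CDK6, ZNF521, BCL11A, MYB and ADCY9) and 0 higher, against 3.12% of all genes lower and 4.75% higher. Of these 5 calls, 2 were left without treated replicate 2 (CDK6, BCL11A and ADCY9 lost) and 3 without treated replicate 1 (BCL11A and ADCY9 lost). In THP-1, 5 of 10 were called lower (MEF2C, CDK6, ZNF521, SATB1 and RUNX2) and 1 higher (BCL11A), against 0.718% lower and 1.72% higher. MV4-11 had 1 member called lower, MEF2C, and 0 higher, where 1.52% and 2.39% of all genes were called, and leaving out single replicates gave 2 to 3 members lower. In MOLM-13, 0 of 10 members were called in either direction, and 0.0848% of all genes were called lower and 0.859% higher. Among the non-MLL-r lines, OCI-AML3 had 2 members lower (SATB1 and RUNX2) and 2 higher (MEF2C and BCL11A), against 0.537% and 1.9%. U-937 had 1 lower, BCL11A, and 0 higher, against 0.113% and 0.3%. HL-60 had 0 in either direction, against 0.175% lower and 0.26% higher. In MOLM-13 and HL-60, the lines without a call, an unadjusted p under 0.05 with no fold threshold was also tried. There 0 members passed in MOLM-13 and 1 in HL-60, MEF2C. The share of all genes at this threshold was not computed, so these counts have no background beside them.

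Over the 70 pairs of a member and a line, 14 were called lower and 3 higher, against 0.896% and 1.74% of all gene-line pairs. In the MLL-r lines this came to 11 of 40 pairs lower and 1 higher, and 10 of these 11 lay in NOMO-1 and THP-1. Without NOMO-1 and THP-1, 1 pair was called lower in the MLL-r lines. In the non-MLL-r lines 3 of 30 pairs were called lower and 2 higher. Lower calls over all genes were also more frequent in MV4-11, NOMO-1 and THP-1 (1.52%, 3.12% and 0.718%) than in the non-MLL-r lines (0.113% to 0.537%). MOLM-13 (0.0848%) was the exception. Whether the members exceed this contrast between the kinds of lines was not tested. With no threshold, 36 of 40 changes were negative in the MLL-r lines and 17 of 30 in the non-MLL-r lines. Over all genes, 51.0% to 53.9% of changes were negative in the MLL-r lines and 49.8% to 54.4% in the others, so that 17 of 30 lies near the share of all genes. The median change of the 10 members was −1.002 in THP-1, −0.93 in NOMO-1, −0.61 in MV4-11 and −0.34 in MOLM-13, beside −0.12 in OCI-AML3, −0.083 in U-937 and −0.040 in HL-60, whereas the median over all genes lay between −0.031 and 0.001 in every line. After Benjamini-Hochberg adjustment over all genes, 7 pairs were lower and 1 higher at an adjusted p under 0.05 (0.148% and 0.543% of all gene-line pairs). The lower pairs were 3 in THP-1, 2 in OCI-AML3 and 1 each in NOMO-1 and MV4-11, so NOMO-1 did not stand out at this threshold. With the replicate number as a block, 19 were lower and 3 higher (1.79% and 2.41%). In either direction, these were 8 in THP-1, 6 in NOMO-1 and 4 each in MV4-11 and OCI-AML3. Shares of all genes by line were not computed at these thresholds.

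**Figure D1:**
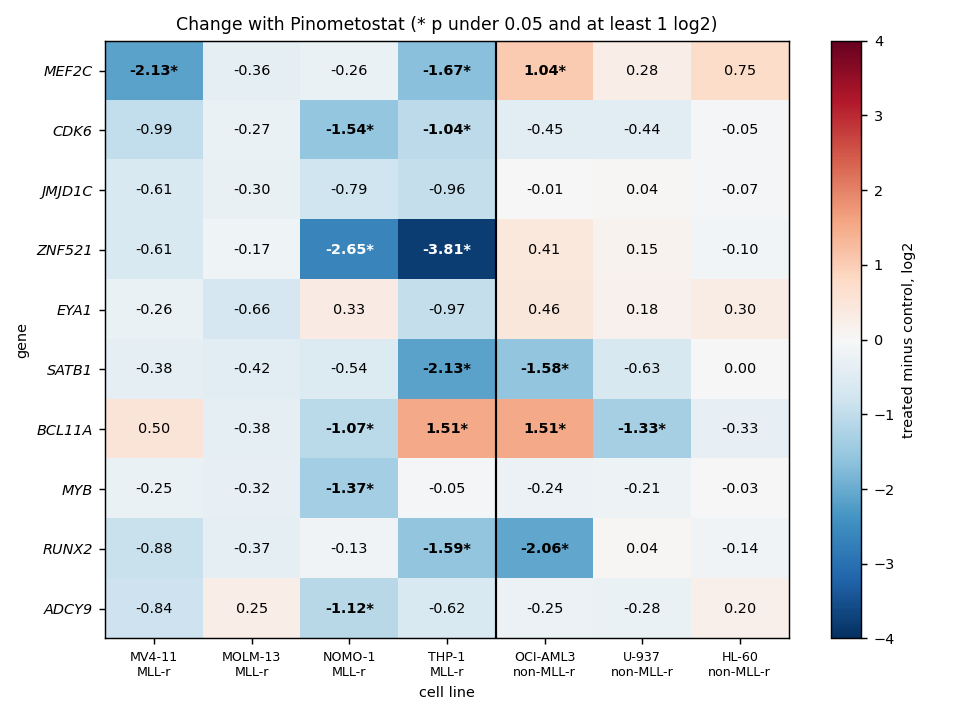
Change of each member (rows) in each line (columns), as the treated minus control mean on the log2 scale, blue for lower and red for higher. Asterisks and bold type mark the pairs called, which crowd in NOMO-1 and THP-1, while MOLM-13 and HL-60 hold 0 calls.

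Monocyte markers were higher after treatment in several of these lines. Of 5 measured genes (CD14, ITGAM, CD163, CSF1R and FCGR1A), 3 were called higher in NOMO-1, 2 each in THP-1, OCI-AML3 and U-937, 1 each in MV4-11 and MOLM-13 and 0 in HL-60. Their median change was 2.55 in NOMO-1 and between 0.12 and 0.94 in the other lines, and their median signal ranged over the lines from 5.15 to 7.84 in control and from 5.30 to 10.31 in treated cells. The part of this shift in the changes of the members was not tested. In a culture, fewer cells expressing a gene and less RNA of it per cell cannot be told apart.

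MEF2C, a transcription factor of the MADS box family that acts in myeloid and lymphoid progenitors, differed in sign between the kinds of lines. In MV4-11 the control arrays read 9.53 and 9.59 and the treated arrays 7.69 and 7.16, and in THP-1 the control arrays read 9.33 and 9.19 and the treated arrays 7.85 and 7.34. Treated and control arrays did not overlap in either line. MEF2C fell by 2.13 ± 0.30 (SE) in MV4-11 (4.38-fold, adjusted p = 0.00847) and by 1.67 ± 0.31 in THP-1 (3.17-fold, adjusted p = 0.0426). In MOLM-13 and NOMO-1, which had the highest control levels at 10.20 and 9.69, the changes were −0.36 ± 0.39 and −0.26 ± 0.35 and the arrays overlapped.

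OCI-AML3 went the other way. Its control arrays read 7.92 and 7.97 and its treated arrays 9.24 and 8.74, a rise of 1.04 ± 0.32 (adjusted p = 0.283, and 0.0285 with the replicate block). The change was 0.28 ± 0.27 in U-937 and 0.75 ± 0.33 in HL-60, at low control levels of 5.35 and 4.79, with overlap of the arrays in U-937 but not in HL-60. The response of OCI-AML3 exceeded that of MV4-11 by 3.18 ± 0.44 (adjusted p = 0.000535) and that of THP-1 by 2.71 ± 0.44 (adjusted p = 0.00233) in a fit over all 28 arrays. These pairs of lines were chosen because MEF2C was called in opposite directions on the same arrays. Large differences were thus favored by the choice, which the p-values do not cover. Over lines, the MLL-r minus non-MLL-r difference in change was −1.79 ± 0.44 (unadjusted p = 0.00223, adjusted p = 0.787), with all 4 MLL-r lines below all 3 non-MLL-r lines.

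ZNF521, a zinc finger protein of immature hematopoietic cells that inhibits the B cell factor EBF1, showed the steepest fall of the 10 members. In THP-1 the control arrays read 8.61 and 7.82 and the treated arrays 4.48 and 4.33, which brought the gene close to the 95th percentile of the negative controls. The signal fell by 3.81 ± 0.34 (14-fold, adjusted p = 0.0014). In NOMO-1 the control arrays read 8.50 and 7.81 and the treated arrays 5.81 and 5.20, and the signal fell by 2.65 ± 0.39 (6.28-fold, adjusted p = 0.0102). MOLM-13, which carries the same kind of fusion and had overlapping control arrays (8.55 and 8.00), kept 8.43 and 7.79 after treatment, a change of −0.17 ± 0.37. MV4-11 and the 3 non-MLL-r lines were at 3.20 or below in control cells and under the 95th percentile of the negative controls on every array, so that a fall could not be measured there.

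CDK6, a cyclin-dependent kinase of the G1 phase, had a negative change in 7 of 7 lines. In NOMO-1 the control arrays read 9.78 and 9.18 and the treated arrays 8.35 and 7.53. The signal fell by 1.54 ± 0.40 (2.91-fold, adjusted p = 0.107, and 7.49e-05 with the replicate block). In THP-1 the control arrays read 8.32 and 7.99 and the treated arrays 7.34 and 6.89, and the signal fell by 1.04 ± 0.31 (adjusted p = 0.351, and 0.0113 with the block). MV4-11 fell short of the fold threshold at −0.99 ± 0.28 (adjusted p = 0.186, and 0.0232 with the block), although its arrays did not overlap. The other changes were −0.27 in MOLM-13, −0.45 in OCI-AML3, −0.44 in U-937 and −0.05 in HL-60, and in HL-60 alone of the 7 lines the arrays overlapped. There the change was −0.26 between the arrays numbered 1 and 0.16 between those numbered 2. The average over lines was −0.68 ± 0.16 (unadjusted p = 0.00159, adjusted p = 0.209). With same-numbered array pairs as samples and the line as block, the adjusted p was 0.0130.

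MYB, a transcription factor needed for the growth of hematopoietic progenitors, was the other member negative in 7 of 7 lines, a pattern that 2.75% of all genes shared. Its control level varied little, from 10.52 in OCI-AML3 to 11.41 in U-937. NOMO-1 stood apart with control arrays at 10.71 and 10.45 and treated arrays at 9.34 and 9.07, and the signal fell by 1.37 ± 0.34 (2.59-fold, adjusted p = 0.087, and 0.000267 with the block). The changes in the other 6 lines lay between −0.32 and −0.03, and MYB was called in none of them. By replicate number, its change was positive in THP-1 for the arrays numbered 1 (0.083) and in HL-60 for those numbered 2 (0.0064).

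**Figure D2:**
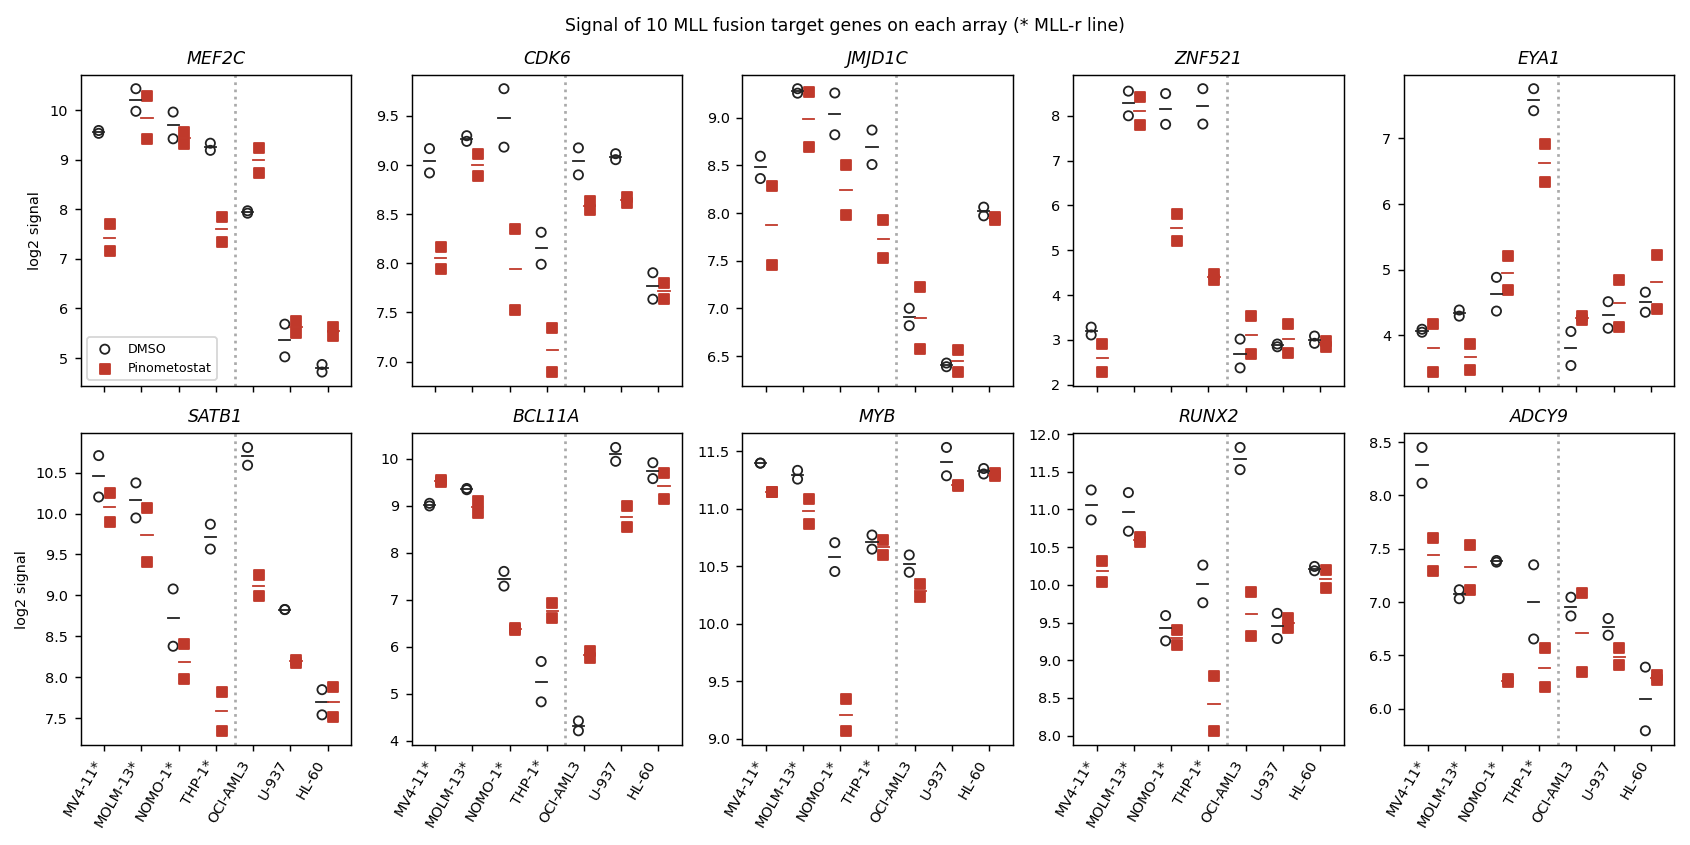
Log2 signal of the 10 members on every array, with open circles for DMSO, filled squares for Pinometostat and lines for the 2-array means, and MLL-r lines left of the dotted line. The falls of ZNF521 in NOMO-1 and THP-1 and of MEF2C in MV4-11 and THP-1 separate treated from control arrays, and ZNF521 is near the floor in MV4-11 and the non-MLL-r lines.

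SATB1 and RUNX2 fell in a line of each kind, THP-1 and OCI-AML3. SATB1 is a chromatin organizer of lymphoid and stem cells. Its control arrays read 9.87 and 9.57 in THP-1 and its treated arrays 7.82 and 7.34, and the signal fell by 2.13 ± 0.31 (4.39-fold, adjusted p = 0.0131). In OCI-AML3, which had the highest control level, the control arrays read 10.81 and 10.59 and the treated arrays 9.24 and 8.99, and the signal fell by 1.58 ± 0.31 (3.00-fold, adjusted p = 0.0269). In the other MLL-r lines the change lay between −0.54 and −0.38 and the arrays overlapped. It was −0.63 ± 0.20 in U-937, where they did not, and 0.00 ± 0.34 in HL-60.

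RUNX2 is a Runt family transcription factor best known from bone. In OCI-AML3 its control arrays read 11.53 and 11.82 and its treated arrays 9.32 and 9.90, and the signal fell by 2.06 ± 0.33 (4.18-fold, adjusted p = 0.00809). In THP-1 the control arrays read 9.76 and 10.26 and the treated arrays 8.06 and 8.79, and the signal fell by 1.59 ± 0.34 (3.00-fold, adjusted p = 0.0926, and 0.000739 with the block). The change in MV4-11 was −0.88 ± 0.29 without overlap of the arrays (adjusted p = 0.287, and 0.035 with the block), and the remaining changes lay between −0.37 and 0.04.

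BCL11A, a zinc finger repressor known for silencing fetal globin and for its role in B cells, was called lower in 2 lines and higher in 2, an MLL-r and a non-MLL-r line in each direction. Without a threshold its change was negative in 4 lines and positive in 3. Its control level spanned the widest range of the 10 members, from 10.10 in U-937 to 4.32 in OCI-AML3, and in that order no neighboring lines had overlapping arrays. In OCI-AML3 the control arrays read 4.21 and 4.42 and the treated arrays 5.91 and 5.75, a rise of 1.51 ± 0.30 (2.85-fold, adjusted p = 0.0334). In THP-1 the control arrays read 5.69 and 4.83 and the treated arrays 6.93 and 6.61, a rise of 1.51 ± 0.35 (adjusted p = 0.125, and 0.00169 with the block). Both lines had the lowest control levels of this gene. In MV4-11, at a control level of 9.03, the change was 0.50 ± 0.27 with arrays that did not overlap (adjusted p = 0.626, and 0.169 with the block), and it was not called.

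In U-937 the control arrays of BCL11A read 9.95 and 10.24 and the treated arrays 8.55 and 8.99, and the signal fell by 1.33 ± 0.24 (adjusted p = 0.25). In NOMO-1 the control arrays read 7.61 and 7.29 and the treated arrays 6.40 and 6.36, and the signal fell by 1.07 ± 0.33 (adjusted p = 0.191, and 0.00316 with the block). The response of THP-1 exceeded that of NOMO-1 by 2.58 ± 0.39 (adjusted p = 0.000418) and that of U-937 by 2.84 ± 0.39 (adjusted p = 0.00107). OCI-AML3 exceeded NOMO-1 by 2.58 ± 0.39 (adjusted p = 0.000368) and U-937 by 2.84 ± 0.39 (adjusted p = 0.000698). These pairs of lines too were chosen by their opposite calls, and the p-values do not cover that choice. The changes not called were −0.38 ± 0.32 in MOLM-13, where the arrays did not overlap, and −0.33 ± 0.35 in HL-60, where they did. The average over the 7 lines was 0.06 ± 0.33.

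JMJD1C, a Jumonji domain protein of the KDM3 family of histone demethylases, was called in 0 lines (1 line, THP-1, at an unadjusted p under 0.05), and its changes were ordered by the kind of line. They were −0.96 ± 0.31 in THP-1, −0.79 ± 0.36 in NOMO-1, −0.61 ± 0.33 in MV4-11 and −0.30 ± 0.34 in MOLM-13. The non-MLL-r lines lay between −0.07 and 0.04. With the replicate block the adjusted p was 0.0174 in THP-1 and 0.0253 in NOMO-1, against 0.429 and 0.462 without it. In THP-1 the control arrays read 8.87 and 8.51 and the treated arrays 7.93 and 7.53, and they did not overlap.

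EYA1, a phosphatase and transcriptional coactivator that acts with homeobox proteins in organ development, was at 7.59 in control THP-1 cells and between 3.80 and 4.63 in the other lines. In THP-1 the control arrays read 7.76 and 7.42 and the treated arrays 6.92 and 6.33, a change of −0.97 ± 0.32 (adjusted p = 0.473, and 0.0184 with the block), short of the fold threshold. In the other lines the level was close to the negative controls and the change lay between −0.66 and 0.46.

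ADCY9, a membrane adenylyl cyclase, fell in NOMO-1, where the control arrays read 7.37 and 7.39 and the treated arrays 6.25 and 6.28. The signal fell by 1.12 ± 0.32 (2.17-fold, adjusted p = 0.155, and 0.00202 with the block). MV4-11, the line with the highest control level (8.28), changed by −0.84 ± 0.29 (adjusted p = 0.314, and 0.0412 with the block), and THP-1 by −0.62 ± 0.33. The other changes lay between −0.28 and 0.25.

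With the 7 line differences taken as the samples, 6 of 10 members were lower over all lines at an unadjusted p under 0.05 in limma, against 7.23% of all genes. They were CDK6, SATB1 (−0.81 ± 0.22), RUNX2 (−0.73 ± 0.24), JMJD1C (−0.39 ± 0.13), ADCY9 (−0.38 ± 0.16) and MYB (−0.35 ± 0.15). None passed the adjustment over all genes, where the smallest member value was 0.209 and 0 of 17687 genes passed. An alternative fit took the differences of same-numbered array pairs as samples, with the line as the block, so that lines were no longer the samples. There CDK6 and SATB1 (adjusted p = 0.0213) were lower at an adjusted p under 0.05, as were 0.435% of all genes.

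The change was lower in MLL-r than in non-MLL-r lines for 5 of 10 members at an unadjusted p under 0.05, against 3.14% of all genes. Beside MEF2C these were ZNF521 (−1.96 ± 0.74), EYA1 (−0.71 ± 0.28), JMJD1C (−0.65 ± 0.20) and CDK6 (−0.64 ± 0.28), each with an adjusted p of 0.787. For MEF2C, ZNF521 and JMJD1C, 3 of 10 members, every MLL-r line lay below every non-MLL-r line, as for 4.17% of all genes. For ZNF521 the nearest lines were MOLM-13 at −0.17 ± 0.37 and HL-60 at −0.10 ± 0.33, a gap smaller than either error. In MV4-11 the change of ZNF521 was −0.61 ± 0.31, with 0 of 4 arrays above the negative control value given above. The order of the lines for ZNF521 is thus clear only for the falls in NOMO-1 and THP-1. ZNF521 and EYA1 are the members with the lowest signals, and for ZNF521 the non-MLL-r lines had little signal to lose. SATB1, RUNX2 and BCL11A showed no such difference, with intervals of −1.18 to 0.92, −1.14 to 1.10 and −1.36 to 1.73, which for RUNX2 and BCL11A leave room for differences of over 1 either way and for SATB1 for a difference of over 1 in the negative direction.

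**Figure D3:**
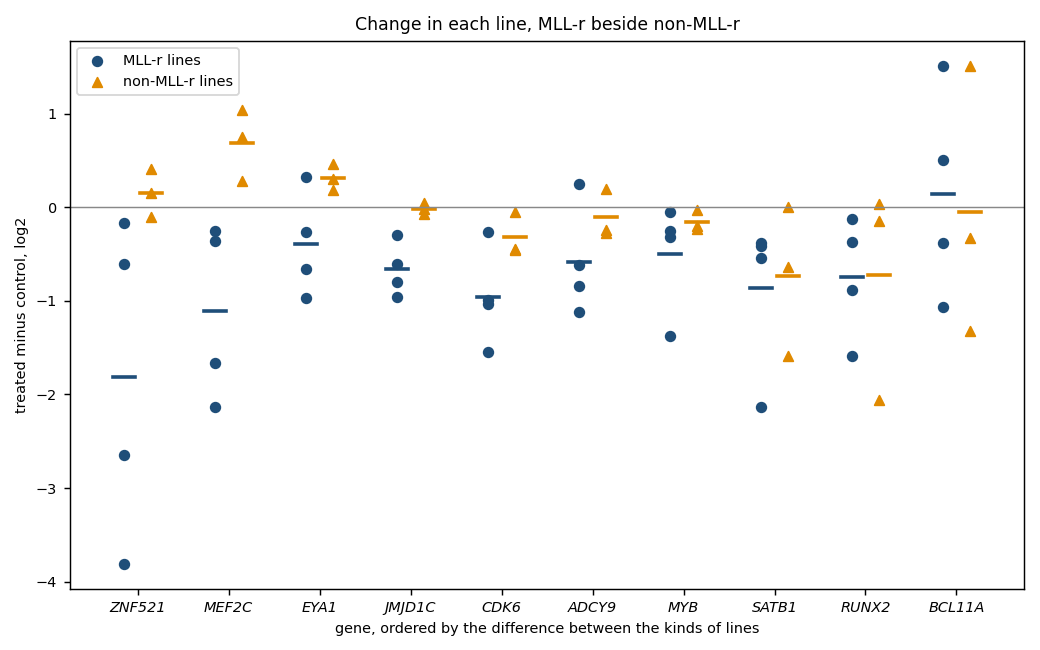
Treated minus control change (log2) of each member in the 4 MLL-r lines (blue circles) and the 3 non-MLL-r lines (orange triangles), with bars for the mean of each kind. MEF2C is negative in every MLL-r line and positive in every non-MLL-r line, while SATB1, RUNX2 and BCL11A overlap.

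In control cells, 4 of 10 members (MEF2C, JMJD1C, ZNF521 and ADCY9) had a higher mean in every MLL-r line than in every non-MLL-r line. Of all genes, 2.98% did so. For ADCY9 the nearest lines of the 2 kinds were THP-1 at 7.00 and OCI-AML3 at 6.96, and their arrays overlapped. For ZNF521 they were MV4-11 at 3.20 and HL-60 at 3.00, both below the negative control value of 4.17 given above. The separation of the kinds thus rests on small differences for ADCY9 and ZNF521. At an unadjusted p under 0.05 the level was higher in MLL-r lines for 3 of 10 members, against 3.34% of all genes, and none of these passed adjustment. MEF2C was higher by 3.65 ± 0.70 (12.5-fold, adjusted p = 0.714), in the order MOLM-13 (10.20), NOMO-1 (9.69), MV4-11 (9.56), THP-1 (9.26), OCI-AML3 (7.94), U-937 (5.35) and HL-60 (4.79). Of these neighbors only NOMO-1 and MV4-11 had overlapping arrays. JMJD1C was higher by 1.76 ± 0.39 (adjusted p = 0.715), from 8.48 to 9.28 in the MLL-r lines and from 6.41 to 8.02 in the others. ZNF521 was higher by 4.10 ± 1.22 (adjusted p = 0.736), a difference carried by MOLM-13, THP-1 and NOMO-1 at 8.28, 8.21 and 8.15, whose arrays overlapped. CDK6, EYA1, SATB1, BCL11A, MYB and RUNX2 overlapped from kind to kind. For EYA1 the levels were 4.07 to 7.59 in the MLL-r lines, highest in THP-1, and 3.80 to 4.50 in the others. For RUNX2 and SATB1 the highest control level was that of the non-MLL-r line OCI-AML3, at 11.68 and 10.70, though for SATB1 its arrays overlapped those of MV4-11.

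By Pearson r over the 28 arrays, the genes most like MEF2C in level were MILR1 (0.914), ZFR (0.910) and SESN1 (0.900), and those most like BCL11A were SEPTIN6 (0.861), CCND2 (0.859) and RFTN1 (0.846). These arrays share 7 lines, so that r mostly describes differences between lines. Relatives and partners of the members, such as other MEF2, RUNX, EYA, MYB and adenylyl cyclase genes, cyclins and CDK inhibitors, gave 5 of 280 gene-line pairs called lower and 6 higher, over 40 measured genes of 46 listed, where 0.896% and 1.74% of all gene-line pairs were called. DACH1, a cofactor of EYA proteins, fell by 1.82 ± 0.33 in NOMO-1 and by 1.96 ± 0.29 in THP-1 and rose by 1.83 ± 0.31 in OCI-AML3 (adjusted p = 0.0254, 0.0131 and 0.0116). CDKN2A, which encodes an inhibitor of CDK6, fell by 1.41 ± 0.27 in MV4-11 (adjusted p = 0.0427). RUNX3 and ADCY1 rose in NOMO-1 by 1.76 ± 0.34 and 1.78 ± 0.36 (adjusted p = 0.0338 and 0.0429).

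Of 18 other known MLL fusion targets, all measured, 19 of 126 gene-line pairs were called lower and 2 higher, and the median of their mean changes was −0.14. Over all genes, 0.896% of pairs were called lower and 1.74% higher. The study had already reported MEIS1, FLT3 and IGF2BP as down-regulated from these arrays. The list was chosen with earlier results known, so a high share of lower calls was favored by the choice. MEIS1, the homeobox partner of HOX proteins, was called lower in 5 lines, MV4-11, NOMO-1, THP-1, OCI-AML3 and U-937. Those called lower in 3 lines were IGF2BP2, an RNA-binding protein, in NOMO-1 (−2.76 ± 0.34), THP-1 (−2.26 ± 0.29) and OCI-AML3 (−2.81 ± 0.31), and FLT3, a receptor tyrosine kinase, in MV4-11 (−1.94 ± 0.29), NOMO-1 (−2.597 ± 0.43) and OCI-AML3 (−1.88 ± 0.33). Called lower in 2 lines were PBX3, a partner of MEIS1, in MV4-11 (−1.51 ± 0.35) and THP-1 (−1.74 ± 0.31), SOCS2, a cytokine signaling inhibitor, in NOMO-1 (−3.61 ± 0.34) and THP-1 (−4.54 ± 0.31), and BCL2, a survival protein, in NOMO-1 (−1.39 ± 0.36) and OCI-AML3 (−1.95 ± 0.36). CPEB2, an RNA-binding protein, went in opposite directions, with −1.73 ± 0.30 in THP-1 and 2.54 ± 0.40 in NOMO-1. In U-937, where BCL11A was the sole member called, MEIS1 was the sole gene of these 18 called lower, and fell by 2.39 ± 0.21 (adjusted p = 0.0176).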

How the data were processed

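Total RNA of 28 samples was hybridized to Clariom S arrays. The deposited log2 values were made by the authors with RMA in R 3.6.1 (background correction, quantile normalization and summary per probe set). They compress low signals, and the number of arrays limits the precision. Of 27189 entries, 5741 controls were left out, 17709 of 21448 transcript probe sets carried 1 gene symbol in the platform annotation, and 20 genes with several probe sets were averaged, giving 17687 genes, tested without a filter. The study's own table of comparisons was not used here.

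Treated and control arrays were compared within each line with limma 3.58.1 (R 4.3.3), checked on simulated data. The simulation drew independent errors for each array, so it did not cover the shared deviations of same-numbered arrays described below. Line differences and line control means were tested with lines as samples, and differences between lines in 1 fit over the 28 arrays. All p-values are two-sided, adjusted by Benjamini-Hochberg over all genes. Same-numbered control and treated arrays deviated together (correlation of deviations from the group means 0.42 to 0.64 in the 7 lines), so the replicate number was added as a block in an alternative within lines. Over lines, the alternative instead took the differences of same-numbered array pairs as samples, with the line as the block. Others were a filter on low signal, median centering, unnamed probe sets, 1 fit over all arrays, the adjusted threshold and leaving out replicates or lines. The members and lists were chosen with earlier results of these data known. All members are named. Listed relatives and targets could be named if called in at least 2 lines or at an adjusted p under 0.05, and for members called in at least 3 lines the 3 genes with the highest r.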

Additional observations from a re-analysis of the deposited data

Results flagged for a closer look

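Control levels and changes of the 10 members were checked for lines that stand apart, 40 groups in all, among which chance alone marks about 1 in 20. In control cells, ZNF521 was at 3.20 in MV4-11 and between 8.15 and 8.28 in the other MLL-r lines. EYA1 was at 7.59 in THP-1, apart from the other MLL-r lines and from all 6 other lines. The change of SATB1 in THP-1 was −2.13, against −0.54 to −0.38 in the other MLL-r lines. The change of MYB in NOMO-1 was −1.37, against −0.32 to −0.03 in the other lines.

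Other results differed between groups. The change of MEF2C was negative in every MLL-r line and positive in every non-MLL-r line, and the difference of −1.79 had an adjusted p of 0.787. Between single lines, the change of MEF2C in OCI-AML3 exceeded that in MV4-11 by 3.18 and that in THP-1 by 2.71. The change of BCL11A in THP-1 exceeded that in NOMO-1 by 2.58 and that in U-937 by 2.84, and the change in OCI-AML3 exceeded these by 2.58 and 2.84. These 6 pairs of lines were chosen because the members were called in opposite directions there, so that large differences were favored by the choice.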

How the results depend on the processing

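No called change of a member in a line, and no difference over lines at an unadjusted p under 0.05, turned its direction under the alternatives run for it. With the replicate block, all 17 calls of members in a line were kept and 0 were added, and the pairs at an adjusted p under 0.05 went from 8 to 22. They were 14 in 1 fit over the 28 arrays, and 5 with genes of low signal left out, where ZNF521 and EYA1 are not tested. The absence of ZNF521 in NOMO-1 and THP-1 does not account for the whole fall from 8 to 5. The share of all gene-line pairs was not computed under either setting. With the adjusted threshold in place of the call rule, 7 pairs were lower, 1 higher and 5 lower in MLL-r lines. Without NOMO-1, 9 pairs were lower, 6 of them in MLL-r lines, without THP-1 also 9 and 6, and without NOMO-1 and THP-1 4 and 1, a choice made after seeing the data. Leaving out control or treated replicates gave 11 to 18 pairs called lower and 2 to 3 higher. The calls lost in this way were BCL11A, CDK6 and ADCY9 in NOMO-1, CDK6 in THP-1 and MEF2C in OCI-AML3. Median centering added CDK6 in MV4-11.

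Over the lines, taking same-numbered array pairs as samples with the line as block raised the members at an adjusted p under 0.05 from 0 to 2, and all genes from 0 to 248. Of the 10 members, 2 had a negative change in every line, and 1 to 2 did in a single replicate, where CDK6 alone remained in replicate 1 and neither CDK6 nor MYB in replicate 2. Of the 5 members with a lower change in MLL-r lines at an unadjusted p under 0.05, 3 were left with low signals left out, 3 to 4 with a replicate left out, 3 without NOMO-1, THP-1, U-937 or HL-60 each, and 2 without OCI-AML3. At the adjusted threshold, 1 control level differed without MV4-11 (ZNF521, 5.36 ± 0.17, adjusted p = 0.000469) and 1 without OCI-AML3 (MEF2C, 4.604 ± 0.31, adjusted p = 0.0135). In each case the line left out was the one of its kind whose level lay nearest the other kind. Over all genes, 4 passed without MV4-11 and 24 without OCI-AML3. Without OCI-AML3, 5 members were higher at an unadjusted p under 0.05, and the share of all genes there was not computed. With 2 arrays per condition, standard errors of members were 0.20 to 0.40 log2, and signals near the negative controls leave no room for a fall. Causes were not tested.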
